A study of Mus musculus with 4 samples.

Results

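The regions described here were open at the ends of protein-coding genes in each of the control libraries of the mouse paraventricular nucleus of the hypothalamus (PVH) and were without a peak in either AAV-Cre library. The study profiled open chromatin by ATAC-seq, in which a transposase cuts accessible DNA, in PVH dissected from mice 12 weeks old. All mice had the genotype Otp fl/fl; Ai14, that is, loxP-flanked alleles of Otp and a Cre-dependent red fluorescent reporter. The control mice were injected with AAV-GFP (2 libraries) and the others with AAV-Cre (2 libraries), a virus that delivers the Cre recombinase, and tissue was taken 4 weeks after the injection. The floxed alleles and the reporter were thus carried by both groups, and only the virus differed by label. The labels give no sex, viral serotype or promoter, no sorting of infected nuclei, and no number of animals in a library. The libraries of a group may therefore be technical replicates, and the nuclei may include those of uninfected cells.

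Peaks that overlapped by 1 bp or more in any of the 4 libraries were joined into 65969 regions on chromosomes 1 to 19. A member had to hold a peak in each AAV-GFP library and none in either AAV-Cre library, and it had to overlap a window of 1000 bp to each side of an end of 1 of 20661 RefSeq protein-coding genes on the mm10 build. This left 876 regions, which touched 926 genes. Of the 876, 796 touched 1 gene, 77 touched 2 and 3 touched 3, and 32 genes had more than 1 such region. The members were chosen by the presence and absence of peaks in these same 4 lists, so their absence from the AAV-Cre lists is the rule and not a result. All values below are descriptions, and no test between the groups was run.

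The start of a gene carries its promoter, where general transcription factors and RNA polymerase II assemble, and the promoters of widely used genes usually lie in CpG islands that stay free of nucleosomes in most cell types. Promoters of genes used by few cell types are poorer in CpG, and their openness in a whole-tissue sample depends on how many of the cells use them. Open chromatin at the far end of a gene can belong to a transcript's end, to a neighbouring gene or to a distal regulatory element. Otp encodes a homeodomain transcription factor that specifies neuroendocrine neurons of the hypothalamus, and homeodomain proteins commonly bind a core of TAAT.

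The promoters of the 4 strongest members with a RefSeq entry that overlaps the region are printed because they show how much the CpG content of strong members differed. Each line holds the 250 bases before the start of transcription on the gene's own strand, 5′ to 3′, from RefSeq on GRCm38.p6 (the assembly of mm10), with every CpG in capitals. Sinhcaf lies on the minus strand at chr6:148946471-148946720 and the others on the plus strand, Zfp955b at chr17:33289294-33289543, Inka2 at chr3:105704349-105704598 and Mlf1 at chr3:67373847-67374096.
Sinhcaf: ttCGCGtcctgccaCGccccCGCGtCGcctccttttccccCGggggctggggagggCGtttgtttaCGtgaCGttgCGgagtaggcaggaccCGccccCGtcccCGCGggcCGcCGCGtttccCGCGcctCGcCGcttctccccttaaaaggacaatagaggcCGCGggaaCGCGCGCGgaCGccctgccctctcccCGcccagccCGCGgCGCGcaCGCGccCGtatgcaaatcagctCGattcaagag
Zfp955b: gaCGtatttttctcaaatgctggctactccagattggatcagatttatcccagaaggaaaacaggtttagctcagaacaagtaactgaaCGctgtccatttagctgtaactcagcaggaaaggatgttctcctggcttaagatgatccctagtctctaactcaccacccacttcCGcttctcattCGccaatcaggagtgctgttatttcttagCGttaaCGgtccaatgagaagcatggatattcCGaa
Inka2: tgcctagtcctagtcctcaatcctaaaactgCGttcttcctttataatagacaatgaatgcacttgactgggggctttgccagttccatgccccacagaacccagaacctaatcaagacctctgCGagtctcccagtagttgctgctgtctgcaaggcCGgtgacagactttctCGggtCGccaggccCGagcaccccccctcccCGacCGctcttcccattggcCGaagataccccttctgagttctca
Mlf1: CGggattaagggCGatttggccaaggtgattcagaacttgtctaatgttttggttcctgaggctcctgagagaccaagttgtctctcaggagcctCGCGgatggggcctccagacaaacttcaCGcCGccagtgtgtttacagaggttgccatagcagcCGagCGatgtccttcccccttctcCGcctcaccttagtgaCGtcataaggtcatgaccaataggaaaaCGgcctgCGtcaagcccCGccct

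The Sinhcaf promoter held 38 CpGs, a ratio of observed to expected CpG (from the counts of C and G) of 1.23. Zfp955b held 7 CpGs with a ratio of 0.58, Inka2 9 with 0.51 and Mlf1 13 with 0.68. The Mlf1 line contains TGACGTCA, the palindromic core of the cAMP response element, and none of the 4 lines contains TAATTA.

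The 876 members made up 8.58% of the 10210 gene-end regions with a peak in both controls (95% Wilson interval 8.05% to 9.14%), and the 926 genes made up 8.58% of 10793 genes. Away from gene ends, 6678 of 17740 regions of both controls were control-only, or 37.6% (36.9% to 38.4%). The intervals cover counting error only. In the converse class, 50 gene-end regions had a peak in both AAV-Cre libraries and in neither control. The lists differed in length, with 57682 and 34100 peaks in the AAV-GFP libraries against 23384 and 26612 in the AAV-Cre libraries, and the depth behind them is unknown. With every list cut to its 23384 strongest peaks, 273 gene-end regions were control-only, 3.35% of 8146, and 200 were AAV-Cre-only, 2.56% of the 7822 gene-end regions of both AAV-Cre libraries. The share elsewhere at equal length was 20.2%. With a −log10 q of at least 5 in all lists, 1189 gene-end regions were control-only, 13.6% of 8761, and 12 were AAV-Cre-only, 0.20% of 5987. Of the 876 members, 340 (38.8%) overlapped that set, but only 28.6% of the 1189 overlapped a member. The rest of the 1189 held an AAV-Cre peak in the full lists. At gene-end regions of all 4 libraries the median −log10 q was 26.6 and 18.01 in the AAV-GFP libraries. In the AAV-Cre libraries it was 9.64 and 10.7, so a fixed cut does not treat the lists alike. The part of this difference in the wider gap between the classes was not tested. Requiring 1 control library fewer raised the count of members to 1592 without AAV-GFP replicate 1 and 2983 without AAV-GFP replicate 2. Leaving out AAV-Cre replicate 1 gave 1516 and leaving out AAV-Cre replicate 2 gave 1756, since each of these rules asks for less.

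Bulk peak lists cannot separate fewer cells of a type from less open chromatin in each cell. Nor do they show whether Otp was deleted, because a gene-end peak does not read the recombined exon. At an end of Otp itself a region on chromosome 13 from 94875130 to 94875565 had a fold enrichment of 3.73 and 4.22 in the AAV-GFP libraries, 5.52 in AAV-Cre replicate 2 and no peak in AAV-Cre replicate 1, so Otp is not among the 926 genes. A region at its other end, from 94885304 to 94885507, held a single peak, that of AAV-Cre replicate 2 (3.46).

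Members were weak peaks. Fold enrichment, the authors' ratio of signal at a peak to its background, had a median of 5.26 in AAV-GFP replicate 1 (2.56 to 15.5) and 4.83 in AAV-GFP replicate 2 (2.70 to 11.3). The 7844 gene-end regions with a peak in all 4 libraries had medians of 9.79 and 8.75 in the same libraries and 7.0 and 7.22 in the AAV-Cre libraries. The 1490 gene-end regions of both controls and 1 AAV-Cre library lay between, at 6.34 and 5.48. Ranked by −log10 p within each list from 0 (strongest) to 100, members had a median rank of 48.7 and 67.6, against 10.4 and 17.5 for the regions of all 4 libraries.

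**Figure D1:**
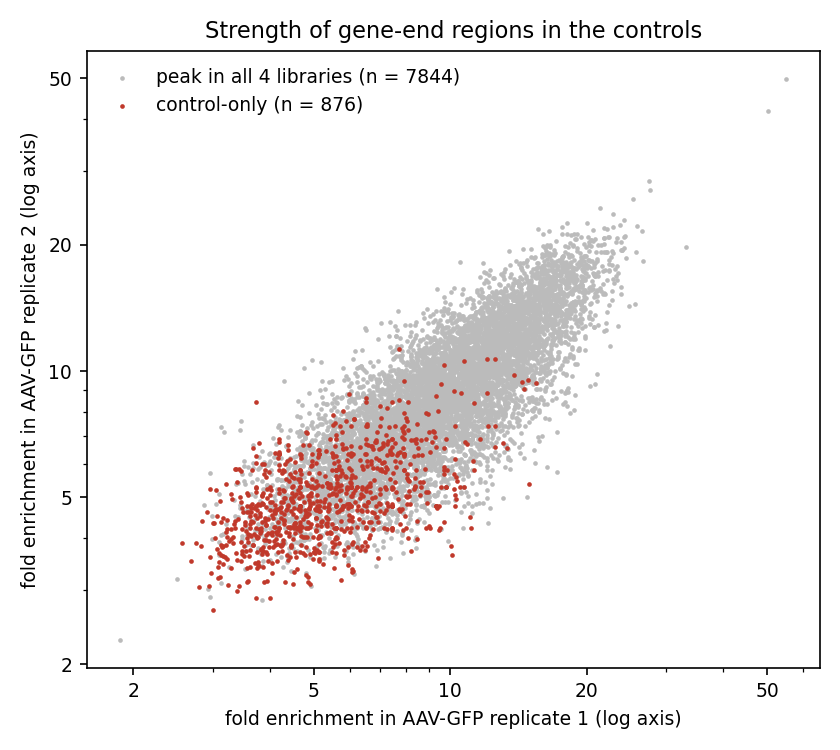
Each point is a gene-end region, placed by its fold enrichment in AAV-GFP replicate 1 (x axis) and AAV-GFP replicate 2 (y axis), both on log axes. The 876 control-only regions (red, medians 5.26 and 4.83) lie in the lower left of the 7844 regions with a peak in all 4 libraries (grey, medians 9.79 and 8.75).

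None of the 876 lay within the strongest 10% of both control lists, 6 lay within the strongest 20%, 27 within the strongest 30% and 164 within the strongest 50%. A −log10 q of at least 5 was reached by 600 members in AAV-GFP replicate 1, by 425 in AAV-GFP replicate 2 and by 340 in both. Across members the fold in one control followed that in the other with Pearson's r of 0.549 and Spearman's rho of 0.514 (n = 876 regions of the same 2 libraries), and 523 were higher in AAV-GFP replicate 1. Members had a median width of 332 bp, against 296 bp for the 6678 control-only regions elsewhere. Gene-end regions of all 4 libraries had 720 bp. A region joins the peaks of every library that holds one, so regions of all 4 libraries are wider partly by rule. In the authors' list for the control group, 872 of the 876 had a peak, with a median fold of 5.86.

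Gene ends and other places were also compared at like strength. Regions of both controls were binned by the rank of the weaker of their 2 control peaks. In the strongest bin 0 of 2342 gene-end regions were control-only, which allows a share of up to 0.128%, against 3 of 732 elsewhere (0.41%). In the bin from 50 to 60 the shares were 16.1% at gene ends and 39.8% elsewhere, and in the weakest bin 50.5% and 68.1%. The share at gene ends was lower in all 10 bins.

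**Figure D2:**
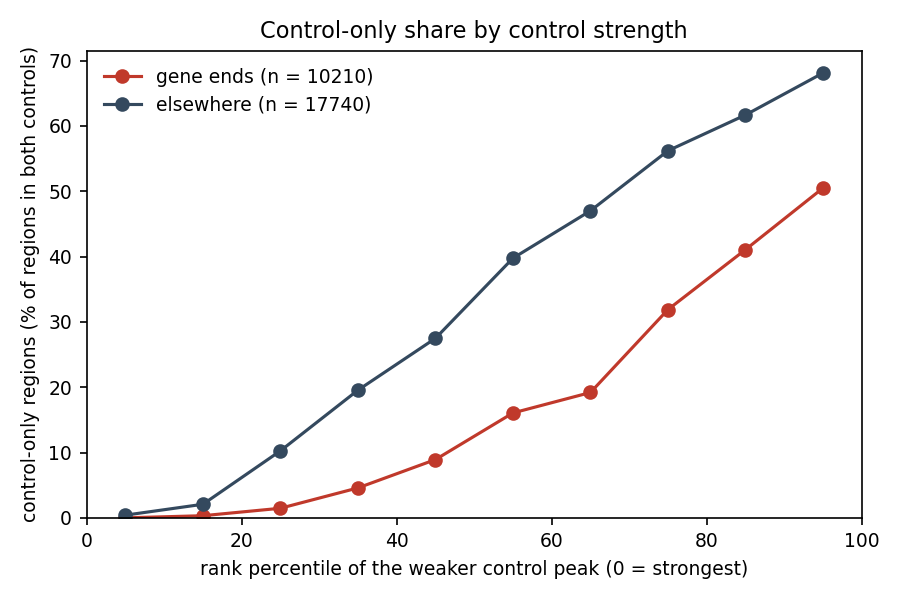
Percentage of regions of both controls that had no AAV-Cre peak (y axis) in 10 bins of the rank percentile of the weaker control peak (x axis, 0 strongest), at gene ends (red, 10210 regions) and elsewhere (dark blue, 17740 regions). The line for gene ends runs below the other throughout, from 0% to 50.5% against 0.41% to 68.1%.

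The strongest members named genes of varied function. The first lay at an end of Sdhc, which encodes a membrane subunit of succinate dehydrogenase. Its fold enrichment was 9.67 in AAV-GFP replicate 1 and 10.3 in AAV-GFP replicate 2, and the nearest AAV-Cre peak was 36122 bp away. The region at the start of Sinhcaf, a subunit of the SIN3-HDAC co-repressor, had folds of 12.0 and 10.7. At the start of Zfp955b, a zinc finger protein gene, they were 12.5 and 10.7. Both of these starts had no AAV-Cre peak nearer than 49865 and 33886 bp, respectively.

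Mlf1, named for a fusion found in myeloid leukaemia, had folds of 10.7 and 10.6 at its start, the most even pair among the strongest members. Sass6, which encodes the cartwheel protein of the centriole, had 14.4 and 9.43. Inka2, an inhibitor of the kinase PAK4, had the highest fold of any member in AAV-GFP replicate 1, 15.5, and 9.39 in AAV-GFP replicate 2. Here an AAV-Cre peak lay 382 bp away, so the start of Inka2 was not without peaks after AAV-Cre. The region beside it, 526 bp inside the gene, had control folds of 5.48 and 6.06 and AAV-Cre folds of 4.62 and 4.39.

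Get3, the ATPase that delivers tail-anchored proteins to the endoplasmic reticulum, had 5.99 and 8.83, and like the region of Sdhc it was higher in AAV-GFP replicate 2. Riiad1 had 9.39 and 8.02. A region at the start of Ddt, a relative of the cytokine MIF, lay also at the far end of the glutathione transferase gene Gstt3, with 10.2 and 8.97. Of the strongest 12 members, 3 lay only at far ends. These were Hpn, a membrane serine protease (13.8 and 9.81), Lmo1, a LIM-only transcriptional cofactor (12.1 and 8.87), and the region shared by Cers1, Gdf1 and Upf1 (7.29 and 6.81). Cers1 makes ceramides, Gdf1 is a TGF-beta family ligand and Upf1 is the helicase of nonsense-mediated decay.

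At the edge of the window, the outermost members were those of Ap1m2, 993 bp from its start (8.20 and 3.73), and 0610010F05Rik, 996 bp from its far end (6.09 and 4.40). Just outside it lay control-only regions 1001 bp from Apoc1 (4.16 and 4.66) and 1004 bp from Tuft1 (3.42 and 5.84). By chromosome, members ranged from 6.06% of gene-end regions of both controls on chromosome 16 to 11.1% on chromosome 14.

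Most members sat at the start of their gene. The strand of the gene was known for 678 members, of which 570 lay at a start, or 84.1% (81.1% to 86.6%), and 108 at a far end only. The gene-end regions of all 4 libraries lay at a start in 97.4% of 6465 cases (97.0% to 97.8%), and those of both controls and 1 AAV-Cre library in 92.2% of 1146 (90.5% to 93.6%). Far ends were thus more frequent among members than in either class. They were not particular to members. In the converse class, with peaks in both AAV-Cre libraries and neither control, 29 of 39 lay at a start, or 74.4% (58.9% to 85.4%). Among regions whose weaker control peak ranked from 50 to 100, the shares at a start were 84.8% for members and 92.7% for regions of all 4 libraries. Those of both controls and 1 AAV-Cre library had 91.7%. Within this range the control-only share of gene-end regions rose from 16.1% to 50.5%, so members there still leaned to weaker ranks.

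Within starts, members lay farther from the start itself, which the rule partly fixes. It bars an AAV-Cre peak from the member region, so where such a peak covers the start the member lies beside it. The median distance of the summit was 448.5 bp for the 200 start members within 1000 bp of an AAV-Cre peak. For the other 370 it was 136 bp. The summit in AAV-GFP replicate 2 was within 100 bp of the annotated gene start in 32.8% of the 570 members, against 53.0% of 6300 start regions of all 4 libraries, with median distances of 220.5 bp and 93 bp. The summit was upstream of the start in 40.0% of members and 49.7% of the other class. In the weaker range from 50 to 100 the shares within 100 bp were closer, 28.1% and 33.0%. A gene here has 1 start, the outermost in RefSeq, so a promoter used inside the gene counts as downstream. Members covered the annotated end in 41.6% of cases and regions of all 4 libraries in 82.8%, and in the weaker range 38.2% and 61.8%. Covering depends on width, with medians of 321 bp and 599 bp in the weaker range. Regions of all 4 libraries join more peaks, so part of this gap is fixed by the merging.

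**Figure D3:**
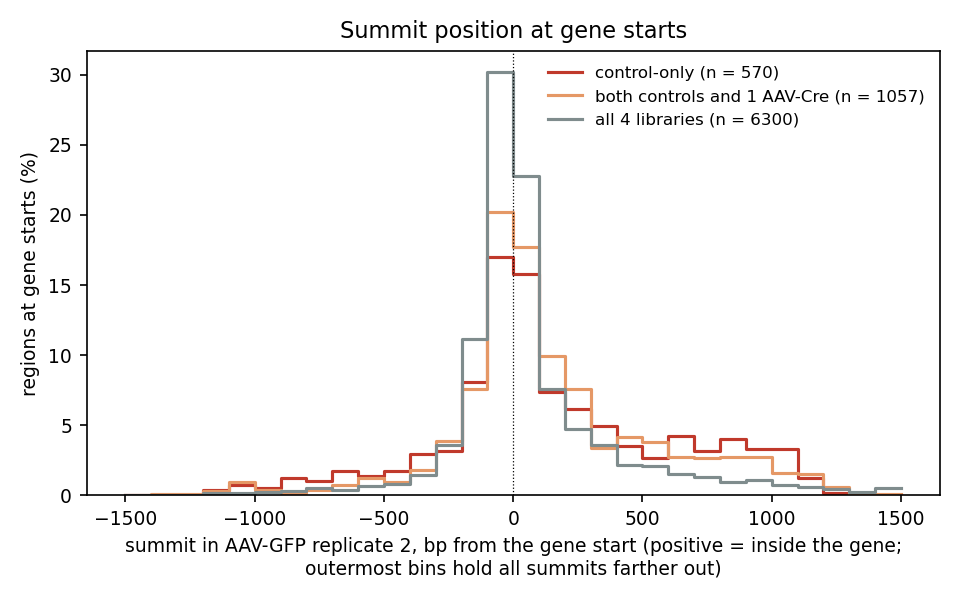
Distance of the summit in AAV-GFP replicate 2 from the gene start in bp (x axis, positive inside the gene) against the percentage of start regions in each bin of 100 bp (y axis), for control-only regions (red, n = 570), regions of both controls and 1 AAV-Cre library (orange, n = 1057) and regions of all 4 libraries (grey, n = 6300). All 3 peak at the start, and the control-only line is lower there and above the other 2 from 600 to 1100 bp inside the gene.

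A share of the members had an AAV-Cre peak close by. The nearest AAV-Cre peak was within 500 bp of 210 members (24.0%) and within 1000 bp of 269 (30.7%), against 4.24% and 6.51% of control-only regions elsewhere. The median distance was 8504 bp for members and 19082 bp for the others. The 269 neighbours had median folds of 4.50 and 4.52, lay at a start in 96.6% of the 207 with a known strand, and had their summit at a median of 448.5 bp from the start. The remaining 607 had folds of 5.66 and 5.06, lay at a start in 78.6% of 471, and had a median distance of 136 bp. Within 1000 bp of 237 of the 269 lay a region with both an AAV-Cre and an AAV-GFP peak, and for 135 such a region had a peak in all 4 libraries.

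The authors' list for the AAV-Cre group covered 11 members despite their lack of a peak in the single AAV-Cre libraries, and each was within 336 bp of a peak of an AAV-Cre library. They included Idh3b, a subunit of mitochondrial isocitrate dehydrogenase, with folds of 5.73 and 5.34 in the controls. The strongest of the 11 was at Ndst3, a heparan sulfate sulfotransferase gene, with 11.2 and 6.11. These 2 were picked out after their values were seen.

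Many of the genes had another gene-end peak after AAV-Cre, at the same or the opposite end but outside the member region. A peak counts for every gene whose window it overlaps, so it may lie on the start of a neighbouring gene. Of the 926 genes, 381 had such a peak in at least 1 AAV-Cre library, or 41.1% (38.0% to 44.3%), 246 in both libraries and 135 in 1. For 345 of them the region with the AAV-Cre peak also held a peak of at least 1 control library, and for 36 it held none, so that peak was seen after AAV-Cre only. The remaining 545 (58.9%) had none at either end, and 368 of these had no AAV-Cre peak anywhere in the gene, while 177 had one elsewhere in the gene body. For scale, 14.8% of the 8845 genes with a gene-end region of all 4 libraries had 2 or more separate gene-end regions with an AAV-Cre peak, and 52.2% of all 20661 genes had any gene-end peak in an AAV-Cre library. In the controls, 487 of the 926 (52.6%) had another gene-end region with an AAV-GFP peak. The 41.1% depended on the rule for a separate peak: it was 24.7% without members within 500 bp of an AAV-Cre peak, 25.4% with a window of 500 bp, 17.6% with a −log10 q of at least 5 in all 4 lists and 20.1% with the authors' group lists.

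The place of the other peak followed the place of the member, which the rule partly fixes, since it bars an AAV-Cre peak from the member region and leaves the start free when the member lies at the far end. Of 134 such genes, 84 had another gene-end peak after AAV-Cre, or 62.7% (54.3% to 70.4%), and for 81 it was at the opposite end, the start. Of 560 genes whose member lay at the start, 208 had one, or 37.1% (33.2% to 41.2%). There it was at the same start in 188 and at the far end in 31. For 216 genes with no known strand the share was 39.4%.

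**Figure D4:**
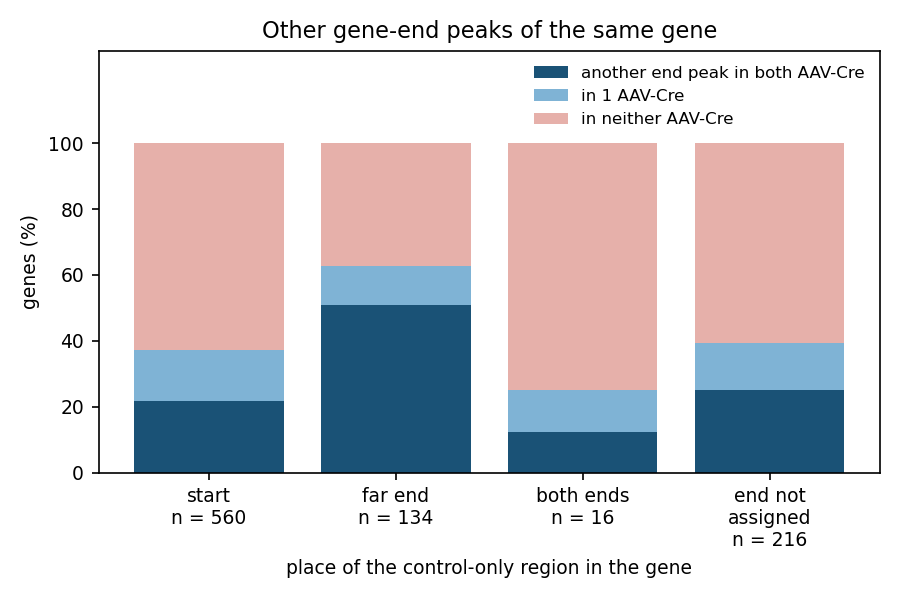
Percentage of genes (y axis) with another gene-end peak in both AAV-Cre libraries (dark blue), in 1 (light blue) or in neither (pink), by the place of the control-only region in the gene (x axis, number of genes under each bar). The blue parts add to 62.7% for far ends and 37.1% for starts.

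The ends of the member genes held 404 other regions with an AAV-Cre peak. Of these, 227 had a peak in all 4 libraries, with median control folds of 7.85 and 7.12 and AAV-Cre folds of 5.88 and 6.49. At Upf1, whose far end held the member, the start had 6.90, 7.25, 7.93 and 7.26 in the 2 AAV-GFP and then the 2 AAV-Cre libraries. The start of Ppp1r15a, the stress-induced phosphatase subunit that reverses phosphorylation of eIF2 alpha, had 3.53, 3.37, 4.81 and 4.87 in the same order, while the member 752 bp off its far end had 5.95 and 6.34.

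The start shared by Cers1 and Gdf1 had weak peaks in all 4 libraries, with control folds of 3.88 and 4.00 and AAV-Cre folds of 4.45 and 3.32. Dusp4, a phosphatase of MAP kinases, had a member with folds of 9.03 and 6.42 and, 345 bp from it, a region with no peak in AAV-GFP replicate 1, 5.06 in AAV-GFP replicate 2 and 4.72 and 3.73 after AAV-Cre. Only AAV-GFP replicate 2 had a peak in both of these regions. Pole and Pxmp2, the catalytic subunit of DNA polymerase epsilon and a peroxisomal membrane protein, shared a member with folds of 7.26 and 8.15 and had no other AAV-Cre gene-end peak.

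Genes of PVH neurons were among those with a member. Of 11 markers of PVH and adjacent neurons, 6 had a gene-end region in both controls, and 3 of these had a control-only one, against 8.58% of all genes. The 8.58% is over regions of all strengths. Sim1, a transcription factor that PVH development requires, had 4.73 and 4.03 at its start, a weak pair, at a rank of 71.8 and 94.4. In the weakest bin of control rank, where Sim1 lies, 50.5% of gene-end regions of both controls were control-only. Slc17a6, the vesicular glutamate transporter of these neurons, had 4.95 and 5.96 at its start. Trh, thyrotropin-releasing hormone, had 6.38 and 4.63 at its far end. None of the 3 had a gene-end peak after AAV-Cre, and Slc17a6 had AAV-Cre peaks elsewhere in the gene.

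Of 41 PVH peptides, hormones and receptors, 17 had a gene-end region in both controls and 5 a control-only one. That is 29.4% on 5 genes, against 8.58% of all genes at any control strength. Besides Trh these were the neuropeptide Y receptors Npy1r (7.46 and 4.76) and Npy5r (4.66 and 5.13), the galanin receptor Galr1 (7.19 and 5.76) and Nppc, the C-type natriuretic peptide (7.94 and 4.50). Nppc alone of the 5 had another gene-end peak after AAV-Cre, at its start, with control folds of 9.81 and 9.13 and AAV-Cre folds of 7.26 and 7.78. The list of hypothalamic transcription factors had 3 of 16, Sim1 again and the homeobox genes Dlx2 (4.45 and 4.97) and Dlx6 (7.75 and 6.41), of forebrain GABA neurons. None of these 3 had one.

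Markers of other cell types with a gene-end region in both controls were few, at most 6 in a list. The lists with a member lay above 8.58%, at 16.7% for general neurons and 25% for astrocytes. Oligodendrocytes and their precursors had 50% each, the same share as the PVH markers. Each of these shares of other cell types rests on 1 gene. Tubb3, a neuronal tubulin, was the 1 of 6 general neuron markers with a member, at the far end (6.66 and 4.07), and its start had peaks in all 4 libraries, at 7.34 and 8.24 in the AAV-GFP and 8.17 and 6.99 in the AAV-Cre libraries. Among glia, a member lay at Fgfr3 for astrocytes (1 of 4, 5.34 and 4.35), Cldn11 for oligodendrocytes (1 of 2, 7.0 and 4.81) and Pdgfra for oligodendrocyte precursors (1 of 2, 5.13 and 4.04). The lists for microglia (0 of 1) and for ependyma and tanycytes (0 of 3) had none, and no marker of endothelial and mural cells had a gene-end region in both controls. The part of a changed mix of cells in these counts was not tested.

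Synaptic and channel genes also had members, where 8.58% of all genes with a gene-end region in both controls had one. The synaptic list (12.1%) and the list of glutamate and GABA receptors (10.7%) lay near that share, each on at most 4 genes. The synaptic vesicle and release list had 4 of 33, Sv2c (7.01 and 5.22), Rims2 (6.31 and 4.99), Rab3b (4.87 and 4.70) and Slc17a6, and Rims2 and Rab3b had another gene-end peak after AAV-Cre. The list of glutamate and GABA receptors had 3 of 28, among them the GABA-A subunit gene Gabrg3 (4.28 and 5.22), and the metabotropic glutamate receptor gene Grm4 (4.81 and 7.15). Beside the member of Gabrg3 lay a peak of AAV-Cre replicate 1 (3.59) in a region without a peak in the other libraries, and Grm4 had no gene-end peak after AAV-Cre. Of 76 genes with symbols of ion channels, 11 had a member (14.5%), led by the ATP-gated channel P2rx3 (12.6 and 6.60), the pacemaker channel Hcn4 at its far end (4.84 and 5.35) and the calcium channel subunit Cacna2d3 (5.63 and 5.40). Another gene-end peak was present after AAV-Cre in 5 of the 11. The neuronal activity list had 0 of 14.

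In the cell stress, inflammation and housekeeping lists, 16%, 15.4% and 18.75% of genes had a member, against 8.58% of all genes. Each share rests on at most 4 genes. Another gene-end peak after AAV-Cre was present in 3 of 4, 1 of 2 and 2 of 3 of these member genes. Over all 926 member genes it was present in 41.1%, and the lists are too small to compare with that. The stress and apoptosis list had 4 of 25, among them Herpud1 of the endoplasmic reticulum stress response (4.74 and 3.69), the survival factor Bcl2 (3.10 and 3.23) and the stress pseudokinase Trib3 (5.34 and 4.27). Herpud1 and Bcl2 had a start region with peaks in all 4 libraries, and Trib3 had no gene-end peak after AAV-Cre. The inflammation and interferon list had 2 of 13, Nfkbia, the inhibitor of NF-kappa B (8.07 and 3.99), whose start region 121 bp away had AAV-Cre folds of 5.22 and 5.69, and the interferon-induced Ifit3 (6.85 and 4.76), which had none.

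The housekeeping list had 3 of 16, namely Tbp, the TATA-binding protein (5.89 and 5.59), Gapdh of glycolysis (3.08 and 3.42) and the RNA polymerase II subunit Polr2a (3.65 and 4.03). Gapdh and Polr2a had a region near the start with peaks in all 4 libraries, with AAV-Cre folds of 6.41 and 6.07 for Gapdh, and the start region of Tbp had none in its window. Of the respiratory chain and TCA cycle list, 4 of 34 had a member, or 11.8% against 8.58% of all genes. These were Sdhc (above), the complex I subunits Ndufa9 (8.17 and 6.0) and Ndufs1 (5.42 and 4.69), and Idh3b. Of the 4, Idh3b had another gene-end peak after AAV-Cre (3.42 and 4.42), in a region without a control peak. The DNA repair and replication list had 3 of 59, Pole, Rad51b (4.32 and 6.0) and Fancd2 (5.54 and 4.23), a share of 5.08%. Of these, Rad51b had another gene-end peak after AAV-Cre, in a region 651 bp from its start that lies on the start of Zfyve26.

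**Figure D5:**
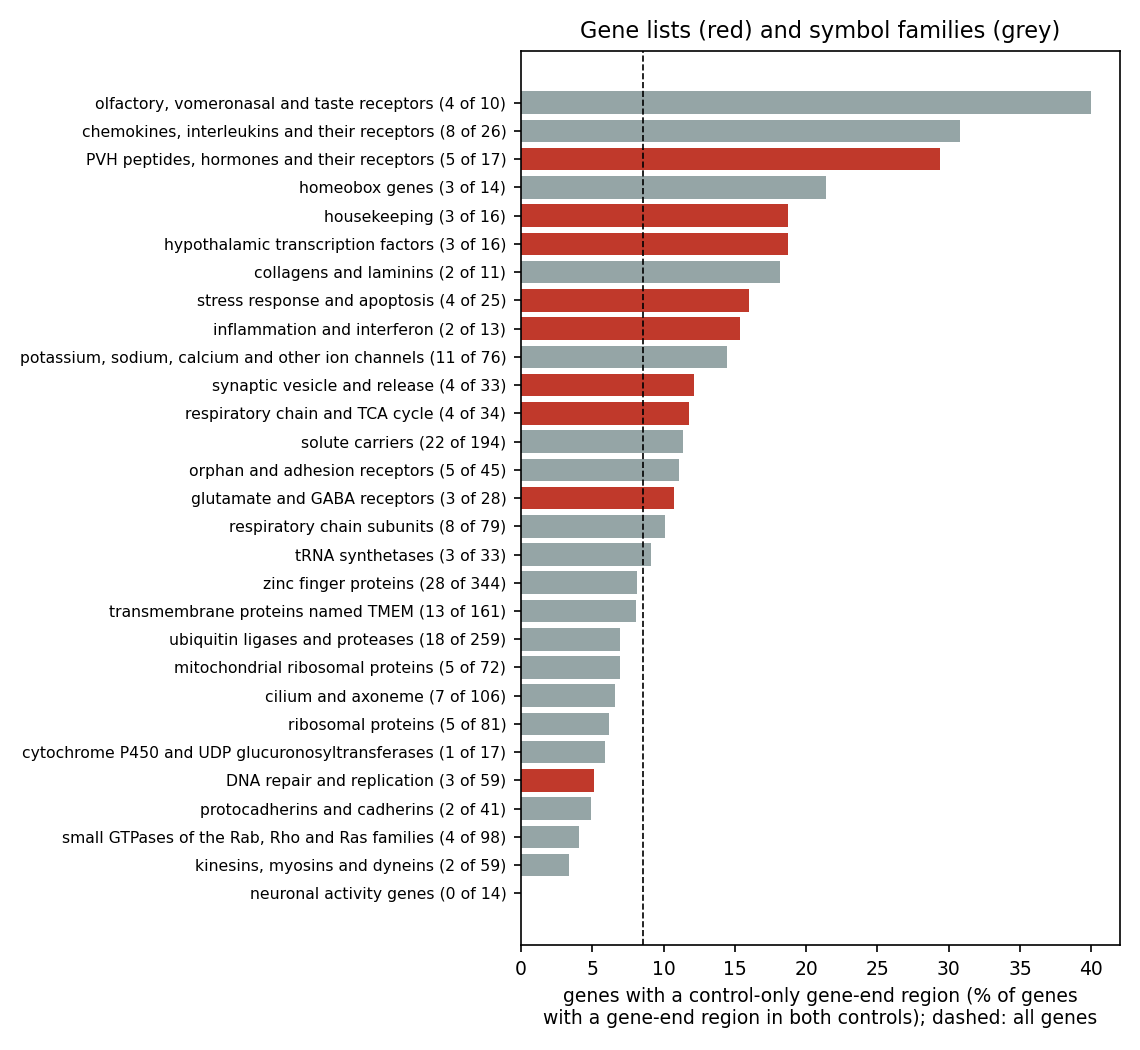
Percentage of genes with a control-only gene-end region (x axis) among genes with a gene-end region in both controls, for each list (red) and each family read from gene symbols (grey) with at least 10 such genes; counts stand beside each name. The dashed line marks the share over all genes, 8.58%, at any control strength. Every bar over 15% rests on 2 to 8 genes.

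Large gene families lay near the share of all genes. Zinc finger proteins had 28 of 344 (8.14%), led by Zfp955b, Zfp395 (8.04 and 7.59) and Zfp101 (7.92 and 9.47), and 7 of the 28 had another gene-end peak after AAV-Cre. Solute carriers had 22 of 194 (11.3%), led by Slc26a5, the prestin gene (11.7 and 6.88), by Slc9a3r1, a scaffold protein named after the exchanger it binds (6.91 and 5.89, a region that also touches the GTPase gene Rab37), and by Slc22a29 (7.92 and 6.27). Ubiquitin ligases and proteases had 18 of 259 (6.95%), with Usp5 (5.91 and 5.25), Usp45 (7.27 and 6.71) and Fbxo41 (4.85 and 5.03) first, and 10 of the 18 had one. Genes named TMEM had 13 of 161 (8.07%), with Tmem132d (7.25 and 6.30), Tmem270 (7.42 and 6.35) and Tmem52 (6.74 and 5.88) first.

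Genes of protein synthesis and energy supply were close to or below the same share. Ribosomal protein genes had 5 of 81 (6.17%), among them Rps15 (5.83 and 3.64) and Rpl32 (5.19 and 4.26). Mitochondrial ribosomal protein genes had 5 of 72 (6.94%), led by Mrpl45 (8.31 and 6.86), Mrpl22 at its far end (6.15 and 7.71) and Mrpl1 (14.9 and 5.37, the widest gap between the 2 controls among these 3). Respiratory chain subunits had 8 of 79 (10.1%), led by Sdhc, Uqcr10 (8.49 and 6.32) and Atp5l (4.87 and 5.72). The tRNA synthetases Cars (5.11 and 6.48), Sars (5.17 and 4.05) and Nars (4.01 and 2.88) were 3 of 33, and all 3 had another gene-end peak after AAV-Cre.

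Families of the cytoskeleton, cell adhesion and traffic lay below 8.58%. Kinesins, myosins and dyneins had 2 of 59, Dync2h1 at its far end (6.49 and 6.35) and Kif18b (4.19 and 6.34). Protocadherins and cadherins had 2 of 41, Cdh4 (8.81 and 5.86) and Pcdh7 (3.50 and 3.62), both with another gene-end peak after AAV-Cre. Genes with symbols of small GTPases had 4 of 98, led by Rab3b, Rab37 and Arl6ip4 (3.46 and 3.92), the last an interactor and not a GTPase. Cilium and axoneme genes had 7 of 106, led by Cep41 (7.57 and 6.73) and Cfap298 (5.53 and 7.86), both at far ends, and Cfap73 (4.92 and 5.95).

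Shares were higher in several families where few genes were open at an end. Genes with symbols of chemokines, interleukins and their receptors had 8 of 26 (30.8%), led by Il20ra (6.52 and 6.88), Cxcl3 (6.06 and 6.35) and Il10ra (6.06 and 6.27). The 8 include Il4i1 and Il4i1b, which match by symbol and are neither interleukins nor receptors. Of the 8, only Il4i1b had another gene-end peak after AAV-Cre. Olfactory, vomeronasal and taste receptors had 4 of 10, led by Olfr656 (5.59 and 5.29), Olfr452 (4.66 and 5.29) and Tas1r1 (5.20 and 4.37). The homeobox family had 3 of 14, with Irx6 (4.66 and 4.76) besides Dlx2 and Dlx6. Orphan and adhesion receptors lay near the share of all genes with 5 of 45 (11.1%). They were led by Gpr6 (7.74 and 6.07), Gpr141b (6.06 and 6.35) and Gpr27 (4.65 and 5.0). Collagens and laminins had 2 of 11, Lama5 (3.88 and 6.0) and Col16a1 (3.36 and 4.38). Cytochrome P450 and UDP glucuronosyltransferase genes lay below the share of all genes with 1 of 17 (5.88%), Ugt8a (4.66 and 4.76), whose enzyme makes a myelin lipid.

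Promoters under a member were poorer in CpG than those open in all 4 libraries. RefSeq promoters of 250 bases before and 50 after the start overlapped members in 425 cases (382 genes). Their median GC content was 61% and their median ratio of observed to expected CpG 0.73, and 67.1% had a ratio of at least 0.6. The share was 84.7% of 7218 promoters under regions of all 4 libraries, 77.1% of 971 under regions of both controls and 1 AAV-Cre library, 48.9% of all 20077 promoters and 13.7% of 9142 under no peak. Among regions of control rank 50 to 100 it was 65.8% for members and 79.3% for regions of all 4 libraries. Members still leaned to the weaker ranks within that range.

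Short motifs were counted in the same promoters on both strands. TAATTA, a homeodomain core, was in 2.82% of the 425, 1.66% of those open in all 4 libraries and 4.47% of all promoters, and 12 member promoters held it. GGGCGG, the GC box, was in 63.5%, 71.4% and 47.0% in the same order, and CCAAT in 32.9%, 42.6% and 38.1%. TATAAA was in 6.59%, 5.17% and 12.7%, the E-box CACGTG in 11.8%, 10.5% and 7.89%, and TGACGTCA in 2.82%, 4.06% and 2.30%. In the same range of control rank (50 to 100), the order of members and regions of all 4 libraries turned for CCAAT, at 29.7% and 25.2%. It also turned for CACGTG, at 9.90% and 10.6%. TAATTA was in 3.51% and 1.77% (11 promoters each), and TGACGTCA in 0.96% and 4.01% (3 and 25 promoters). GGGCGG was in 63.3% and 68.2%, and TATAAA in 7.03% and 5.78%. A match is a run of letters and not a shown binding site.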

How the data were processed

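Per the labels' protocols, nuclei were dounced from dissected PVH, spun through a sucrose cushion and treated with transposase from a commercial kit. The reads were processed on mm10 with MACS2, Bowtie2, FastQC and Trim Galore, per the submitters' processing notes. Their versions, the filters on reads and the threshold for peaks are, for this series, not given in the sources used here. Deposited by the authors were 6 narrowPeak lists, 1 for each of the 4 libraries and 1 for each group. The group lists are named as overlap peaks. The deposited fold enrichment is a ratio of signal to background, and the authors also give each peak a −log10 p and a −log10 q. Ranks and filters used the values of 1 list at a time, and folds of several lists are set side by side as the authors' values, with no test between lists. The deposited score was not used. No counts were used, so depth is unknown, and an interval or a limit for a count of 0 covers counting error only.

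From these lists peaks were merged, assigned to windows and counted with Python 3.11.15, pandas 2.3.3 and numpy 2.4.6, and Wilson intervals came from scipy 1.17.1. The merging was tested on simulated intervals. RefSeq tables of GRCm38.p6 gave genes and promoters. Strand was taken from the promoter table and was known for 16456 of 20661 genes, and a gene start or far end was assigned only to these.

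The members, the 18 gene lists (417 entries, 401 on chromosomes 1 to 19) and the 19 symbol families were chosen with earlier results of these data known. Named are the 12 strongest members (by the weaker of 2 control ranks of −log10 p), the 6 strongest with another gene-end peak in both AAV-Cre libraries, every member gene of a list, the 3 strongest of a family, the 4 strongest that touch 2 or more genes and those at the window edge. A few genes that this rule names are not reported here. No test was run. The alternatives were lists of equal length, stricter −log10 q, a stricter overlap, near AAV-Cre peaks, other windows, the authors' group lists and leaving out each library.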

Additional observations from a re-analysis of the deposited data

How the results depend on the processing

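The 6 values were recomputed under 12 alternatives, and 23 of 68 stayed within 1.5 times (counts), the 95% interval (percentages) or 0.299, the SD between the 2 control medians of fold. With lists of equal length, the members fell to 273, their genes to 298, the percentage with another AAV-Cre gene-end peak to 28.5%, and the fold medians rose to 7.33 and 6.09. With −log10 q of at least 5 in all lists, that percentage was 17.6%, the share at a start 91.3% and the folds 6.56 and 6.10. With it in the AAV-GFP lists alone there were 340 members, 367 genes, 33.0% and folds of 6.51 and 5.95. Sharing 50% of the shorter peak gave 45.0%. Leaving out members within 500 bp of an AAV-Cre peak gave 24.7%, 80% at a start and a fold of 5.59 in AAV-GFP replicate 1. A window of 500 bp gave 25.4% and 88.0% at a start, and one of 2500 bp 57.6% and 74.7%. The authors' group lists gave 2328 members, 2468 genes, 20.1% and 88.7% at a start, and 828 of the 876 members (94.5%) were among those regions.

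Leaving out each library gave 1516 to 2983 members, 1601 to 2895 genes, 29.9% to 54.2% with another gene-end peak, 82.9% to 87.9% at a start, and folds of 4.52 to 5.81 in AAV-GFP replicate 1 and 4.45 to 5.22 in AAV-GFP replicate 2. Of the 876 members, 228 (26.0%) were control-only at equal length. The depth of the libraries is unknown, and the cause of these shifts was not tested.

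No paired analysis was possible because the result comes from no test.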
